A study of Mus musculus with 14 samples.

Results

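Nucleoporins and nuclear transport factors are the proteins that build the nuclear pore and carry cargo through it. The 43 genes described here, of 12393 measured, were chosen by symbol: Nup, Kpna, Ipo or Xpo followed by a digit, and Kpnb1, Tnpo1, Cse1l, Ran, Rangap1, Ranbp1, Ranbp2, Pom121, Ndc1, Nxt1 and Rae1. Tpr, also named by the choice, was not analysed here. Where a gene had several probe sets with that symbol alone, the one with the highest mean over the 14 arrays stood for it. The level, but no difference between groups, entered that choice of probe set. The 43 genes themselves were chosen with earlier results of these data known. They fall into 20 nucleoporins and 23 transport factors.

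The nuclear pore is a ring of repeated subcomplexes set into the nuclear envelope. Its Y complexes and inner ring form the scaffold, a membrane ring anchors it, and nucleoporins rich in phenylalanine and glycine repeats fill the central channel. Importins pick up cargo in the cytoplasm and release it when they bind Ran in its GTP form in the nucleus, exportins bind cargo together with that form, and GTP hydrolysis outside the nucleus sets the exported cargo free.

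The arrays were Affymetrix Mouse 430A 2.0, hybridised with total RNA of hepatoblasts, the bipotent progenitors of hepatocytes and bile duct cells. The cells had been taken from wild-type mouse embryos at embryonic day 14 and immortalised by plating at clonal density; whether all cultures go back to 1 clone is not given in the sources used here. All were grown in medium with serum, epidermal growth factor, insulin-like growth factor II and insulin. A doxycycline-inducible system carried IDH1 R132C or IDH2 R172K, the matching wild-type enzymes, or an empty vector, both mutations being known from cholangiocarcinoma, and the labels' protocols give doxycycline at 25 ng/mL for the IDH1 experiments. Whether the vector and IDH2 cultures received it is not given there, so an effect of doxycycline and of the IDH form cannot be told apart in comparisons of cultures that differ in it. There were 7 groups of 2 cultures: IDH1 R132C and vector on uncoated plates, the setting of the study's differentiation assays, kept there for up to 5 days, and R132C cells, R172K cells, cells with either wild-type enzyme and vector cells on collagen-coated plates.

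Levels below are log2 of the probe set intensity and are compared within a gene only. The labelled cell type was checked against its markers. Hepatoblast and epithelial genes were well above background, with mean log2 levels of 11.39 for Hnf4a, 11.50 for Foxa2, 10.67 for Afp, 14.28 for Krt8 and 14.08 for Krt18. Alb, at a mean of 4.64, lay near the arrays' lower quartile of 4.72 to 4.81, and Dlk1 was at 5.32. Among markers of other cell types, 4 to 5 of 8 mesenchymal, 2 to 4 of 5 blood and 1 to 2 of 5 endothelial genes had group means above that quartile. Their summed intensities per array were 239 to 276, 172.4 to 273.8 and 107 to 142 in that order of lists. No value of any of the 43 genes fell under its array's lower quartile.

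Most of the 43 genes were lower on uncoated plates than on collagen in both R132C and vector cells. In R132C cells 28 fell and none rose, against 12.3% of all genes that fell and 13.6% that rose. In vector cells 30 fell and none rose, where 14.2% of all genes fell and 15.1% rose. A gene was called where limma's test over all 14 arrays gave a Benjamini-Hochberg adjusted p under 0.05 among the 12393 genes. The median log2 difference, uncoated minus collagen, was -0.44 in R132C cells and -0.50 in vector cells, against -0.03 and -0.02 over all genes. The same 27 genes fell in both comparisons, and 9.98% of all genes did so. Since the RNA came from whole cultures, fewer cells of a type and less RNA per cell cannot be told apart. Some cell type markers differed between plates too. Epcam, an epithelial adhesion gene, rose 2.11-fold in R132C cells and 3.55-fold in vector cells, and Afp fell 1.78-fold in R132C cells and 2.63-fold in vector cells. Of 5 blood markers 1 rose in each comparison, Ptprc, by log2 1.19 in R132C cells and 1.73 in vector cells. Its mean log2 levels were 5.35 on uncoated plates and 4.16 on collagen in R132C cells, and 6.20 on uncoated plates and 4.47 on collagen in vector cells. Of 8 mesenchymal markers none was called in R132C cells and 1 fell in vector cells, and no endothelial marker was called. The part of these markers in the lower levels of the 43 genes was not tested.

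The arrays themselves were well separated. In R132C cells 38 of the 43 genes had both uncoated arrays below both collagen arrays, which held for 35.2% of all genes, and in vector cells it was also 38, against 34.4%. All 4 uncoated arrays lay below all 10 collagen arrays, whatever the IDH form, for 34 of the 43 genes and for 13.6% of all genes. In a moderated F test over the 7 groups 32 of the 43 genes passed, against 35.5% of all genes.

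**Figure D1:**
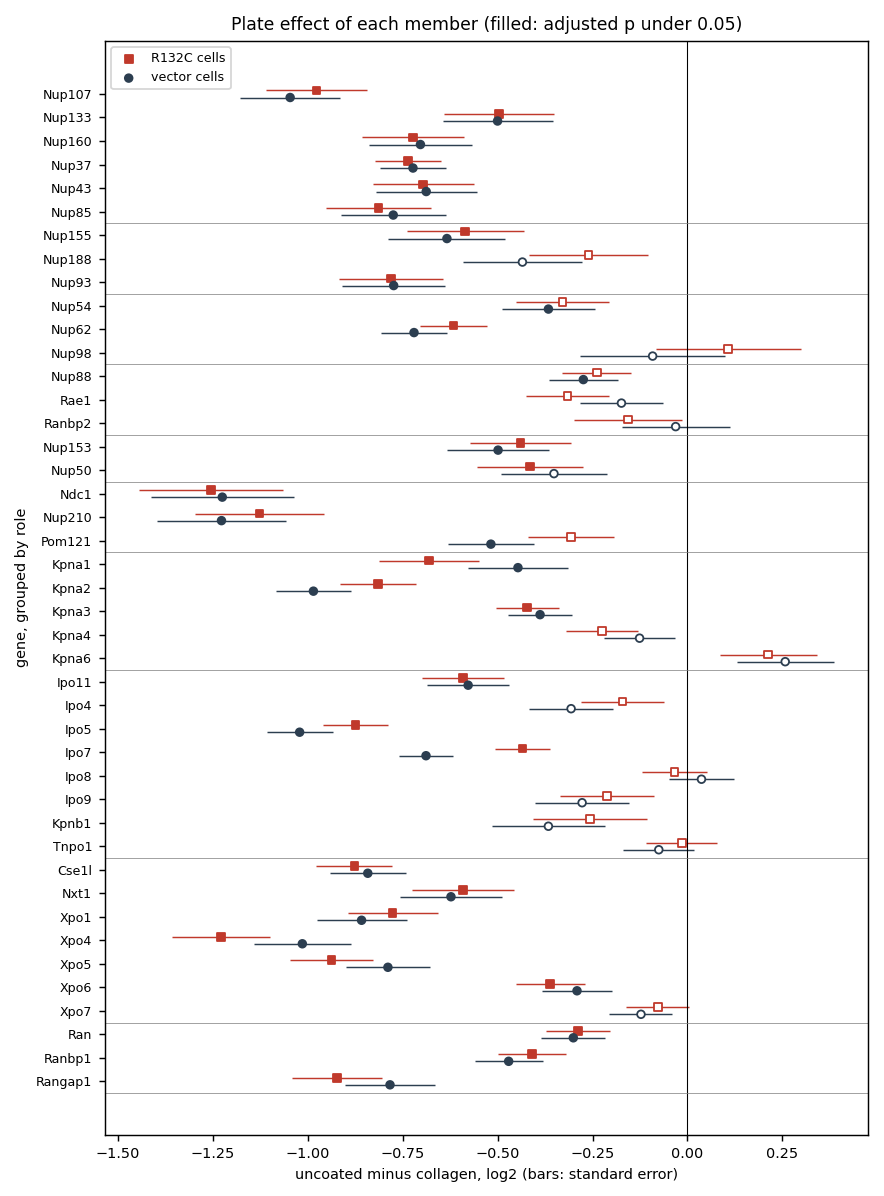
Log2 difference, uncoated minus collagen, for each of the 43 genes in R132C cells (squares) and vector cells (circles), grouped by role, with standard errors as bars and filled symbols where the adjusted p was under 0.05. Nearly all symbols lie left of 0, with Ndc1, Nup210 and Xpo4 farthest left in R132C cells, and Kpna6 lies right of 0 in both.

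The promoters of 5 genes with large falls are shown because they hold the motifs counted below. The promoter of Rangap1, another gene with large falls, held none of them. Whether motif matches and falls go together was not tested. RefSeq start sites in GRCm38.p6 gave a promoter for 35 of the 43 genes, 42 promoters in all. The 250 bases before the start are printed 5′ to 3′ on the gene's strand. The window is chr6:91116827-91117076 on the minus strand for Nup210 and chr4:107367797-107368046 on the plus strand for Ndc1. It is chr10:117792706-117792955 on the minus strand for Nup107, chr11:106999526-106999775 on the minus strand for Kpna2 and chr17:46202561-46202810 on the plus strand for Xpo5. Capitals mark a match to one of the searched motifs on either strand.
Nup210: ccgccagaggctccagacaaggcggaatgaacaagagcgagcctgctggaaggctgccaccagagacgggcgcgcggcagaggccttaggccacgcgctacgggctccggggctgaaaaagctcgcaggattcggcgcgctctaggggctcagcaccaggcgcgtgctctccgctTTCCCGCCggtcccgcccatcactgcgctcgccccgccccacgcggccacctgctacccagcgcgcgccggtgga
Ndc1: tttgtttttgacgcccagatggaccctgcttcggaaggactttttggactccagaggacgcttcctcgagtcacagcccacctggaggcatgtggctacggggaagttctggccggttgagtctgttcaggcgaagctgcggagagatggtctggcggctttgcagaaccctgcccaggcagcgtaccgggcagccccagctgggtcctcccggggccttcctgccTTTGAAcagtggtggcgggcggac
Nup107: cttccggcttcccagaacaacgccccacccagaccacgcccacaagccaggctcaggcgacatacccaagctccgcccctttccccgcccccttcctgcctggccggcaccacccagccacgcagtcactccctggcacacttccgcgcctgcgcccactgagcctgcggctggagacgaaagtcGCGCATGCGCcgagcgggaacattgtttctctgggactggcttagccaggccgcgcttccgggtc
Kpna2: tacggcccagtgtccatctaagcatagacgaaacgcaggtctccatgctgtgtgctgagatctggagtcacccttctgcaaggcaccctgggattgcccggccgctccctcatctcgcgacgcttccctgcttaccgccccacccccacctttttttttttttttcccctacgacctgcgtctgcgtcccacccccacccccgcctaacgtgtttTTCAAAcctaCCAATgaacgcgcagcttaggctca
Xpo5: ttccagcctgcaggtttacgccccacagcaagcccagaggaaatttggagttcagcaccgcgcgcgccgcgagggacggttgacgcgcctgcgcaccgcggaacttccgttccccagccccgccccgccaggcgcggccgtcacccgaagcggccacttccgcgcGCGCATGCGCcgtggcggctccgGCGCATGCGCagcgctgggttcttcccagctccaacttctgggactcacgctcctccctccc

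Of 6 motifs searched on both strands, the palindrome GCGCATGCGC, the site of nuclear respiratory factor 1, stood in 5 of the 42 promoters (11.9%) and in 0.782% of all 32851 promoters of the same length. Its share was 1.27% over genes measured on the arrays. The 5 were those of Nup107, Xpo5, Nup62, Nup50 and Ran, and those of Xpo5 and Nup50 held it more than once. The letters CCAAT were found in 20 promoters (47.6%, against 33.8% of all and 34.7% over genes measured on the arrays), Kpna2 included, and the E-box CACGTG in 6 (14.3%, against 6.02% of all and 7.68% over genes measured on the arrays). The letters TTTGAA of the cell cycle homology region were in 9 (21.4%, against 16.0% of all and 11.5% over measured genes), Ndc1 and Kpna2 included. The E2F letters GGCGGGAA stood in 2, Nup210 and Ranbp1 (4.76%, against 1.86% of all and 2.84% over measured genes). The ETS letters CCGGAAGT stood in 3 (7.14%, against 2.88% of all and 4.62% over measured genes). Each motif was counted by itself, with matches to different motifs allowed to overlap. Median GC content was 63.0% in the 42 promoters, against 52.4% in all and 58.4% over genes measured on the arrays. These matches are letters in a window, and binding was not measured.

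In the membrane ring, Nup210 and Ndc1 showed the largest falls of the 20 nucleoporins in both comparisons. Nup210 encodes a transmembrane nucleoporin with a large domain in the envelope lumen. In R132C cells its log2 intensity was 7.82 and 7.27 on uncoated plates, against 8.67 and 8.67 on collagen, and in vector cells it was 7.07 and 6.82 on uncoated plates, against 8.35 and 7.99 on collagen. All 4 uncoated arrays lay below the 4 collagen arrays, and the vector uncoated arrays were the lowest. The log2 difference was -1.13 (SE 0.17) in R132C cells, a 2.18-fold fall with adjusted p = 0.000473 in limma, and -1.23 (SE 0.17) in vector cells, a 2.34-fold fall with adjusted p = 0.000159.

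Ndc1, the membrane anchor needed to insert new pores, was at 7.90 and 7.53 on uncoated plates, against 9.003 and 8.93 on collagen, in R132C cells. In vector cells the levels were 7.46 and 7.68 on uncoated plates, against 9.09 and 8.50 on collagen. The uncoated and collagen arrays did not overlap, and the vector collagen arrays lay farther apart than the R132C ones. The fall was 2.38-fold in R132C cells (log2 -1.25, SE 0.19) and 2.34-fold in vector cells (log2 -1.22, SE 0.19), with adjusted p of 0.000462 and 0.00034 in limma. For Pom121, which helps seed pores in the membrane, the log2 difference of -0.31 in R132C cells did not pass (adjusted p = 0.0667 in limma), and in vector cells it fell 1.43-fold (adjusted p = 0.00389). In a limma fit of every probe set, its other set fell in both comparisons (log2 -0.46 in R132C cells, -0.68 in vector cells).

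Each of the 6 Y complex genes among the 43 fell in both comparisons, with median log2 differences of -0.73 in R132C cells and -0.71 in vector cells. Nup107, a stem subunit of the Y, led them. Its levels were 9.83 and 9.59 on uncoated plates, against 10.69 and 10.69 on collagen, in R132C cells, and 9.35 and 9.42 on uncoated plates, against 10.57 and 10.28 on collagen, in vector cells. Every uncoated array lay below every collagen array. The falls were 1.97-fold (log2 -0.98, SE 0.13) in R132C cells and 2.06-fold (log2 -1.05, SE 0.13) in vector cells, with adjusted p of 0.000234 and 8.22e-05 in limma. The other Y genes among the 43 fell by less. Nup85, Nup160, Nup37 and Nup43 had log2 differences of -0.69 to -0.81, and Nup133 had -0.50 in both.

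In the inner ring, Nup93, which links the scaffold to the central channel, fell 1.72-fold in R132C cells and 1.71-fold in vector cells. Nup155, another scaffold subunit of that ring, fell 1.5-fold in R132C cells and 1.55-fold in vector cells. Its other probe set, at a mean log2 level of 8.50, passed in neither comparison (log2 -0.32 in R132C cells, -0.34 in vector cells). Nup188, a partner of Nup93, did not pass in either comparison, at log2 -0.26 in R132C cells (adjusted p = 0.266 in limma) and -0.43 in vector cells (adjusted p = 0.0548). Among the central channel genes, Nup62, whose repeats help form the permeability barrier, fell 1.53-fold in R132C cells and 1.65-fold in vector cells. For its partner Nup54 the difference of -0.33 in R132C cells did not pass (adjusted p = 0.0671 in limma), and in vector cells it fell 1.29-fold (adjusted p = 0.0391). In a limma fit of every probe set, another Nup54 set fell by log2 -0.42 in R132C cells and -0.62 in vector cells. A dim set of that gene, at a mean log2 level of 6.16, passed in neither. Nup98, which also acts in mRNA export, had log2 differences of 0.11 in R132C cells and -0.09 in vector cells. Its replicates scattered, at 8.57 and 9.17 in R132C cells on uncoated plates, against 8.82 and 8.71 on collagen.

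The cytoplasmic face had the smallest median differences of the 6 nucleoporin roles, -0.24 in R132C cells and -0.17 in vector cells. For Nup88, which helps hold the mRNA export platform there, the R132C difference of -0.24 did not pass, and in vector cells it fell 1.21-fold (adjusted p = 0.0372 in limma). Ranbp2, the large filament protein and SUMO ligase, had differences of -0.16 in R132C cells and -0.03 in vector cells. The mRNA export factor Rae1 had -0.32 in R132C cells (adjusted p = 0.0509 in limma) and -0.17 in vector cells. In the nuclear basket, Nup153, a docking site for importins, fell 1.36-fold in R132C cells and 1.41-fold in vector cells. Nup50, which helps release cargo from importin alpha, fell 1.33-fold in R132C cells (adjusted p = 0.0428 in limma), and its difference of -0.35 in vector cells did not pass (adjusted p = 0.0772).

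**Figure D2:**
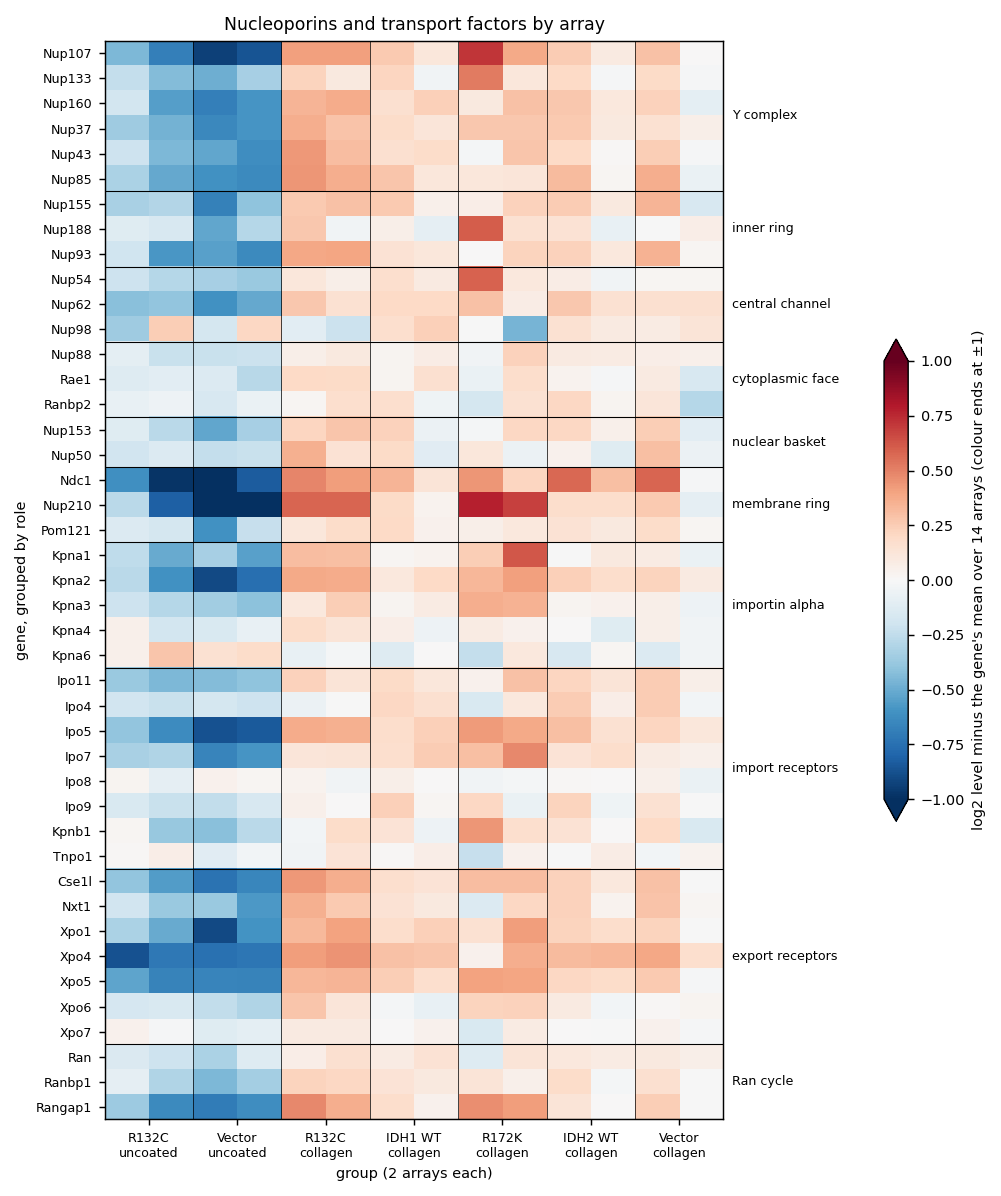
Log2 level of each of the 43 genes in each of the 14 arrays as the deviation from the gene's own mean (blue lower, red higher, colour ending at 1 log2 unit either way), with genes by role and the 7 groups in columns of 2 arrays. The 4 uncoated arrays at the left are blue for most genes, and Kpna6, Ipo8, Tnpo1 and Xpo7 are pale there.

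Of the 5 importin alpha genes, which encode adaptors that recognise the classical nuclear localisation signal, Kpna2, Kpna1 and Kpna3 fell in both comparisons. Kpna2 stood at 12.45 and 12.11 on uncoated plates, against 13.10 and 13.09 on collagen, in R132C cells, and at 11.81 and 11.96 on uncoated plates, against 12.94 and 12.80 on collagen, in vector cells. The uncoated and collagen arrays did not overlap, and the R132C uncoated arrays were above the vector uncoated ones. It fell 1.76-fold in R132C cells (log2 -0.81, SE 0.10, adjusted p = 0.000135 in limma) and 1.98-fold in vector cells (log2 -0.98, SE 0.10, adjusted p = 1.76e-05). Kpna1 fell 1.6-fold and Kpna3 1.34-fold in R132C cells, against 1.36-fold and 1.31-fold in vector cells. Kpna4 had -0.22 in R132C cells and -0.13 in vector cells and did not pass. Kpna6 had the highest differences of all 43 genes, 0.21 in R132C cells and 0.26 in vector cells, which did not pass either (adjusted p = 0.263 and 0.163 in limma).

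Among the 8 import receptors 3 fell in both comparisons: Ipo5, Ipo7 and Ipo11. Ipo5 carries histones and ribosomal proteins into the nucleus. Its levels were 11.49 and 11.26 on uncoated plates, against 12.26 and 12.24 on collagen, in R132C cells, and 11.02 and 11.05 on uncoated plates, against 12.11 and 12.00 on collagen, in vector cells. The replicates lay close together next to this distance. The falls were 1.83-fold in R132C cells (log2 -0.87, SE 0.087, adjusted p = 4.75e-05 in limma) and 2.03-fold in vector cells (log2 -1.02, SE 0.087, adjusted p = 5.31e-06). Ipo11, which carries ubiquitin-conjugating enzymes, fell 1.51-fold in R132C cells and 1.49-fold in vector cells. Ipo8 and Tnpo1, the receptor for cargo with a proline-tyrosine signal, had differences between -0.08 and 0.04. Ipo4 and Ipo9 had -0.17 to -0.31 without passing.

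Ipo7, an importer of ribosomal proteins and, with importin beta, of linker histone, fell in both comparisons too. R132C cells had 12.22 and 12.25 on uncoated plates, against 12.66 and 12.67 on collagen. Vector cells had 11.88 and 11.95 on uncoated plates, against 12.62 and 12.59 on collagen. Replicates lay close together, and the 4 groups did not overlap on uncoated plates or between plates. The fall was 1.35-fold in R132C cells (log2 -0.43, SE 0.072) and 1.61-fold in vector cells (log2 -0.69, SE 0.072).

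Kpnb1, importin beta itself, depended on the probe set. The set with the highest level gave differences of -0.26 in R132C cells and -0.37 in vector cells, which did not pass. Its 3 other sets all fell in both comparisons, with log2 differences of -0.46 to -1.29 in R132C cells and -0.44 to -0.90 in vector cells, in a limma fit of every probe set. Over the 23 genes with several probe sets there were 41 other sets. In R132C cells 23 of these fell, none rose and 18 did not pass. In vector cells 24 fell, 1 rose, a dim set of Kpna4 at a mean log2 level of 6.22, and 16 did not pass. These counts come from that fit of every probe set, and the share of all probe sets called in it was not counted.

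Of the 7 export genes 6 fell in both comparisons, and their median differences were -0.78 in R132C cells and -0.79 in vector cells. Xpo4, the exporter of the translation factor eIF5A, was at 6.34 and 6.50 on uncoated plates, against 7.64 and 7.67 on collagen, in R132C cells. In vector cells it was at 6.47 and 6.49 on uncoated plates, against 7.60 and 7.39 on collagen. Every uncoated array lay below every collagen array, and the lowest value was still above the arrays' lower quartile. The falls were 2.34-fold in R132C cells (log2 -1.23, SE 0.13, adjusted p = 5.82e-05 in limma) and 2.02-fold in vector cells (log2 -1.01, SE 0.13, adjusted p = 8.36e-05).

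Xpo5, which exports microRNA precursors, had 7.61 and 7.47 on uncoated plates, against 8.48 and 8.48 on collagen, in R132C cells, and 7.48 and 7.47 on uncoated plates, against 8.40 and 8.13 on collagen, in vector cells. The plates did not overlap. The fall was 1.91-fold in R132C cells (log2 -0.94, SE 0.11, adjusted p = 0.000103 in limma) and 1.73-fold in vector cells (log2 -0.79, SE 0.11, adjusted p = 0.000168). Xpo1, the main exporter of proteins with a leucine-rich signal, fell 1.71-fold in R132C cells and 1.81-fold in vector cells. Cse1l, which returns importin alpha to the cytoplasm, fell 1.84-fold in R132C cells and 1.79-fold in vector cells. Nxt1, the partner of the mRNA exporter Nxf1, fell 1.51-fold in R132C cells and 1.54-fold in vector cells. Xpo6, the exporter of actin with profilin, fell 1.28-fold in R132C cells and 1.22-fold in vector cells, and Xpo7 did not pass, at -0.08 and -0.12.

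All 3 Ran cycle genes among the 43 fell in both comparisons. Rangap1, which makes Ran hydrolyse GTP at the cytoplasmic side of the pore, was at 9.14 and 8.87 on uncoated plates, against 9.99 and 9.87 on collagen, in R132C cells. In vector cells it was at 8.81 and 8.89 on uncoated plates, against 9.76 and 9.51 on collagen. The plates again did not overlap. The fall was 1.89-fold in R132C cells (log2 -0.92, SE 0.12, adjusted p = 0.000173 in limma) and 1.72-fold in vector cells (log2 -0.78, SE 0.12, adjusted p = 0.000282). Its cofactor Ranbp1 fell 1.33-fold in R132C cells and 1.39-fold in vector cells. Ran itself, the small GTPase, fell 1.22-fold in R132C cells and 1.23-fold in vector cells by its brightest probe set, with adjusted p of 0.0229 and 0.0162 in limma. One of its 5 other sets gave log2 differences of -0.999 in R132C cells and -1.15 in vector cells. The rest gave -0.19 to -0.27 in R132C cells and -0.25 to -0.32 in vector cells. They include a dim set at a mean log2 level of 3.11. Their adjusted p in a limma fit of every probe set was 0.0374 to 0.092 in R132C cells. In vector cells it was 0.0116 to 0.0437. The R132C call of Ran was not kept under every alternative processing described below.

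**Figure D3:**
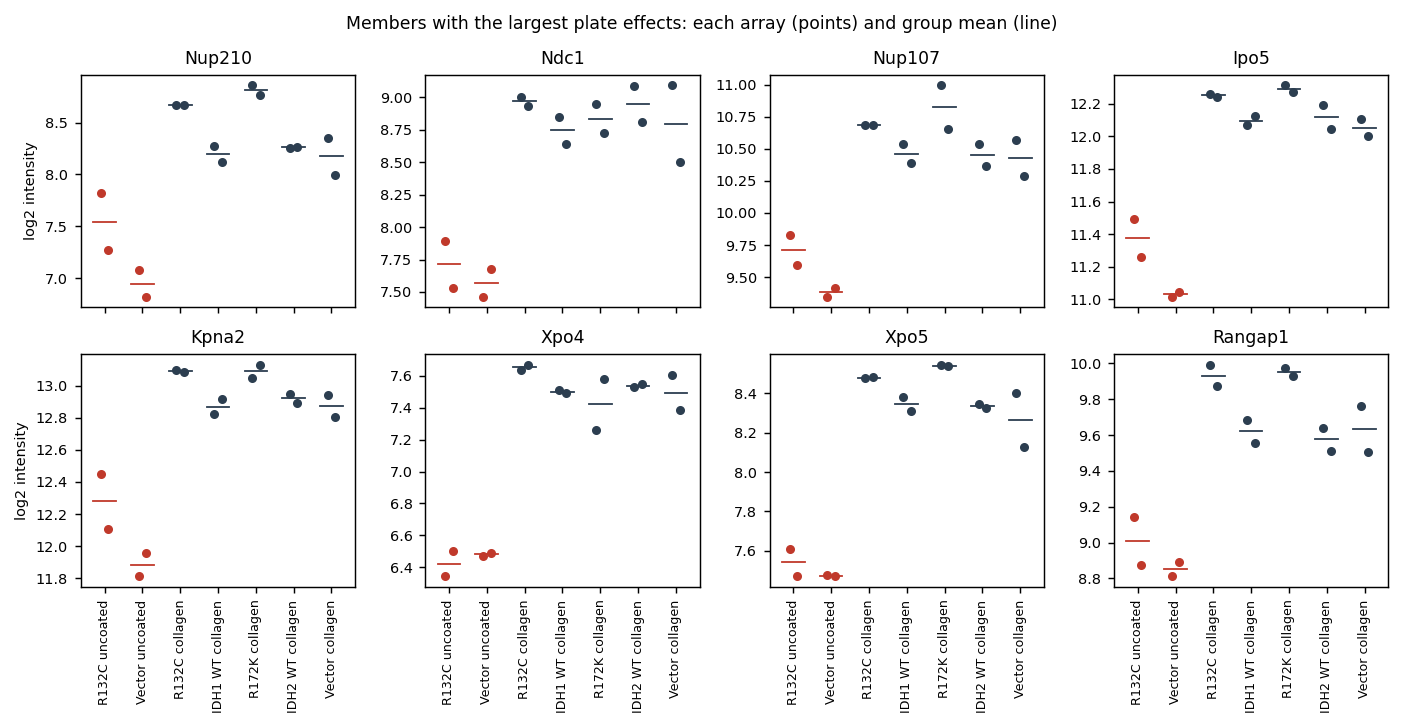
Log2 intensity of 8 genes in each array (points) with the group mean (line), uncoated groups in red at the left and collagen groups in dark blue, each panel with its own axis that does not start at 0. The uncoated arrays lie below every collagen array in all 8 panels, and for Nup210, Nup107, Ipo5 and Kpna2 the R132C uncoated arrays lie above the vector uncoated arrays.

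The test of the difference between the plate effects passed for none of the 43 genes in limma, and for 0.25% of all genes. The difference, R132C minus vector, ran from -0.23 for Kpna1 to 0.25 for Ipo7. Ipo7 was the 1 gene with an unadjusted p under 0.05 (0.027, adjusted p = 0.72 in limma). A p above the threshold does not show that the effects were equal. By the probe set with the highest level, Nup50 passed in R132C cells alone and Nup54, Nup88 and Pom121 in vector cells alone. None of these passed the test of the difference. Nup54 and Pom121 each had another probe set that fell in both comparisons.

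On uncoated plates R132C cells had slightly higher levels of most of these genes than vector cells. The difference, R132C minus vector, was above 0 for 38 of the 43, against 5774 of 12393 genes, and their median was 0.14, against -0.01 over all genes. Without R132C uncoated array 1 that median was 0.097, with 32 above 0, and without R132C uncoated array 2 it was 0.183, with 39 above 0. In 25 genes both R132C arrays lay above both vector arrays, against 21.3% of all genes. Of the 43, Ipo7 alone passed, at 12.22 and 12.25 in R132C cells, against 11.88 and 11.95 in vector cells (log2 0.31, SE 0.072, 1.24-fold, adjusted p = 0.0438 in limma), and 0.896% of all genes rose and 1.49% fell. That call held in 2 of 14 fits that each left out 1 array. The next genes were Ipo5 (0.35), Kpna2 (0.39) and Nup210 (0.60), with adjusted p of 0.0615, 0.0647 and 0.0996 in limma.

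Proliferation markers moved in the same arrays. In R132C cells 7 of 9 measured markers fell on uncoated plates, with a median log2 difference of -0.80, and all 9 fell in vector cells, with a median of -1.12. Of all genes 12.3% fell in R132C cells and 14.2% in vector cells. Mki67 fell 2.02-fold in R132C cells and 2.90-fold in vector cells. On uncoated plates 3 of the 9 were higher in R132C than in vector cells, with a median of 0.57, and 0.896% of all genes were. The R132C uncoated arrays lay apart for these markers. Their median deviation from the gene means was -0.16 in array 1 and -0.63 in array 2. It was -1.05 and -0.94 in the vector uncoated arrays. The part of the markers in the lower levels of nucleoporins and transport factors was not tested.

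**Figure D4:**
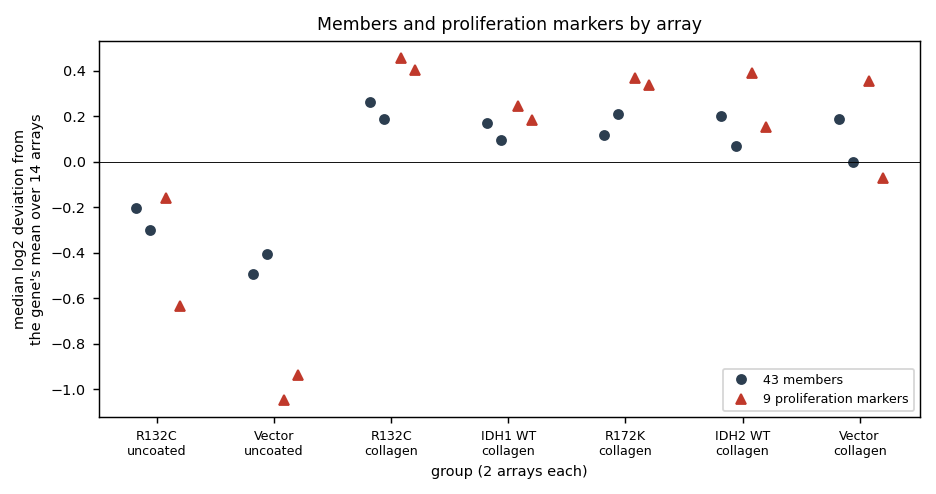
Median log2 deviation from each gene's own mean over the 14 arrays, for the 43 genes (circles) and 9 proliferation markers (triangles), by array and group. The circles lie between -0.49 and -0.20 in the 4 uncoated arrays and between -0.0025 and 0.26 in the 10 collagen arrays, and the triangles are lowest in the vector uncoated arrays.

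On collagen, R132C cells gave no call among the 43 genes against vector, and none of the 12393 genes passed in limma. Unadjusted p was under 0.05 for 7 of the 43, all higher in R132C cells, and 2.78% of all genes were higher at that threshold. Still 40 of the 43 differences were above 0, with a median of 0.16, against -0.0049 over all genes, and 22 genes had both R132C arrays above both vector arrays, against 17.7% of all genes. Vector array 2 was the lowest collagen array for these genes. The median was 0.05, with 31 above 0, without that array, and 0.25 without vector array 1. The same R132C arrays against wild-type IDH1 gave a median of 0.13 with 36 above 0, no call (0.0484% of all genes rose), 23 genes with both R132C arrays higher (22.1% of all genes) and 5 genes higher at an unadjusted p under 0.05, as were 3.49% of all genes. Without wild-type IDH1 array 2 that median was 0.086, with 32 above 0. Nup210 had the highest of these differences, at 8.67 and 8.67 in R132C cells, against 8.28 and 8.12 in wild-type IDH1 cells (log2 0.47, adjusted p = 0.506 in limma).

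In R172K cells on collagen Ipo7 and Kpna3 were higher than in vector cells. Ipo7 was at 12.84 and 13.03 in R172K cells, against 12.62 and 12.59 in vector cells (log2 0.33, SE 0.072, 1.26-fold, adjusted p = 0.0261 in limma). Kpna3, an importin alpha, was at 10.85 and 10.84 in R172K cells, against 10.55 and 10.44 in vector cells (log2 0.35, SE 0.083, 1.27-fold, adjusted p = 0.0351). The groups did not overlap for either gene, and 1.15% of all genes rose and 3.12% fell. The Ipo7 call was lost without either vector array (adjusted p = 0.0711 and 0.184 in limma), and held in the other 12 fits that left out 1 array. The Kpna3 call was lost in 9 of 14 such fits, those without either vector array (0.0569 and 0.246) included, and with its probe sets averaged the difference was 0.19 (adjusted p = 0.311 in limma). Nup210, at 8.86 and 8.77 in R172K cells, against 8.35 and 7.99 in vector cells, had a difference of 0.64 that missed the threshold (adjusted p = 0.0529 in limma).

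The 2 R172K arrays differed from each other more than any other pair of replicates, with r = 0.994 over all genes. Nup107 was 10.996 and 10.65 in them, Nup133 10.63 and 10.22, Nup54 11.57 and 11.09, Nup188 8.87 and 8.41 and Nup98 8.92 and 8.46, each higher in array 1, while Kpna1 was 9.75 and 10.13. Array 1 was the lower one for 24 of the 43 genes, with a median difference, array 1 minus 2, of -0.018. Over the 43 genes the median difference between R172K and vector cells was 0.05, with 30 above 0, against -0.05 over all genes. Without vector array 2 it was -0.038, with 21 above 0, without vector array 1 it was 0.199, with 38 above 0, and with arrays centred on their median it was 0.125, with 37 above 0. Without R172K array 1 it was 0.139. In the fit of all arrays 14 genes had both R172K arrays higher, against 14.4% of all genes. Against wild-type IDH2, no gene of the 43 passed in limma, 8 were higher at an unadjusted p under 0.05, as were 5.78% of all genes, and 0.597% of all genes rose and 1.14% fell. The median was 0.01, and it was -0.015 without wild-type IDH2 array 2 and 0.105 without array 1 of that group. Kpna3, with 10.51 and 10.53 in wild-type IDH2 cells, had the lowest adjusted p (log2 0.32, adjusted p = 0.0718 in limma).

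No difference was called for either wild-type form. Wild-type IDH1 against vector gave a median of 0.03 and wild-type IDH2 a median of 0.02. Without vector array 2 these were -0.053, with 9 above 0, and -0.063, with 12 above 0, and without vector array 1 they were 0.106 and 0.111. Without wild-type IDH2 array 1 the median of that form was -0.011. No gene of the 43 passed in limma, none had an unadjusted p under 0.05, and 0% of all genes passed in either comparison. The comparisons against vector share the vector arrays, and those of each mutant share its own arrays, so their medians are not independent.

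**Figure D5:**
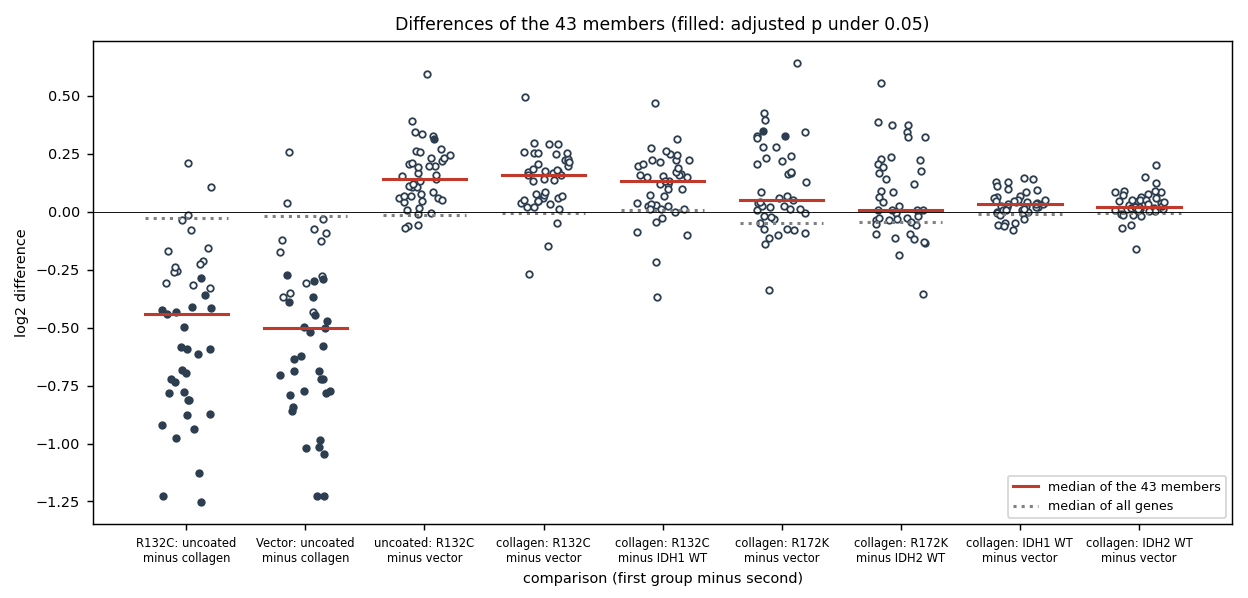
Log2 differences of the 43 genes (points, filled where the adjusted p was under 0.05) in 9 comparisons, each as the first group minus the second, with the median of the 43 (solid line) and of all genes (dotted line). The 2 plate comparisons at the left have medians of -0.44 and -0.50, and the other comparisons have medians of 0.01 to 0.16 with 3 filled points in all.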

How the data were processed

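The authors deposited 1 table of probe set intensity on a linear scale for 14 arrays, 2 separate cultures in each of 7 groups. It was made with RMA, the robust multi-array average, which the submitters' processing notes name. Settings, detection calls and scanner files were not used here, and the platform table named the probe sets. Values lay between 5.84 and 26770, with medians per array of 134.9 to 148.3, so log2 was taken. Of 22690 probe sets 64 were controls, 20380 carried 1 symbol, 691 carried several and 1555 had no symbol. The highest probe set stood for each of 12393 genes.

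One limma model (version 3.58.1, R 4.3.3) of the group means used all 14 arrays, with lmFit and a trended eBayes and 7 residual degrees of freedom, and p-values were Benjamini-Hochberg adjusted over all genes in each of 10 comparisons. In data simulated for the vector plate comparison, 32.8%, 97.0% and 100% of changed genes were recovered at log2 changes of 0.5, 1 and 2, with 7 false calls among 12393 genes. Only 67, 67 and 66 genes were changed at these sizes, whereas 15.1% of all genes rose and 14.2% fell in the real comparison. Since the adjusted threshold depends on the share of changed genes, these percentages do not give the recovery in the real data. The members and lists were chosen with earlier results of these data known. Values in every array are given for up to 6 called genes with the largest falls in each plate comparison and up to 4 each way elsewhere. Of each other list up to 4 called genes are named. Alternatives changed the probe set rule, normalization, filter, trend, weights, replicate block and arrays fitted. The number of arrays limits the precision.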

Additional observations from a re-analysis of the deposited data

Results flagged for a closer look

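Ipo7, the importer of ribosomal proteins and linker histone, had differences of opposite sign for the IDH1 and IDH2 mutants, each set against its own wild type on collagen, with no overlap of arrays in either. It was at 12.66 and 12.67 in R132C cells, against 12.71 and 12.79 in wild-type IDH1 cells, a log2 difference of -0.087. It was at 12.84 and 13.03 in R172K cells, against 12.68 and 12.72 in wild-type IDH2 cells, a log2 difference of 0.24. Neither difference passed in limma (adjusted p = 0.864 and 0.121), and the difference between them was not tested. Ipo7 was singled out among the 43 genes for this pattern. Both R132C arrays lay below both wild-type IDH1 arrays for 3 of these genes and above for 23. Both R172K arrays lay above both wild-type IDH2 arrays for 16 and below for 2. The share of all genes with opposite separation was not counted, so the pattern cannot be told from chance.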

How the results depend on the processing

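The plate calls kept their direction in every alternative run, with 26 to 32 of the 43 genes lower in R132C cells and 27 to 34 in vector cells, against 28 and 30 in the fit reported. Leaving out 1 array at a time gave 20 to 31 in R132C cells, 22 to 32 in vector cells and 26 to 33 in the F test over all groups (29 to 34 under the other alternatives). Of the genes called, 20 of 28 in R132C cells and 21 of 30 in vector cells passed under every alternative. The test of the difference between plate effects gave 0 throughout.

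The small counts moved. For R132C against vector on uncoated plates (1 gene) the count was 0 with every probe set tested by itself, without the intensity trend and with only the arrays compared, 3 with array weights, 4 with the replicate block, 2 without both R172K arrays, an alternative chosen after seeing the data, and 0 to 3 with 1 array left out. For R172K against vector on collagen (2 genes) it was 1 with probe sets averaged, 4 with cyclic loess, 4 with median centring, 4 with the replicate block, 0 without the trend, with array weights and with only the arrays compared, and 0 to 6 with 1 array left out, the 6 without R172K array 2. For R172K against wild-type IDH2 (0 genes) it was 2 with cyclic loess, 1 with the replicate block and 0 to 5 with 1 array left out, the 5 again without R172K array 2. The cause was not tested.

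Values that changed sign were all of genes not called. With the probe sets of a gene averaged, the plate difference was 0.036 for Ipo8 and 0.0031 for Kpna4 in R132C cells, and 0.16 for Kpna4 and 0.019 for Tnpo1 in vector cells. With 1 array left out it ran in R132C cells from -0.095 to 0.026 for Ipo8, from -0.195 to 0.41 for Nup98 and from -0.10 to 0.070 for Tnpo1. In vector cells it ran from -0.020 to 0.093 for Ipo8, from -0.28 to 0.097 for Nup98 and from -0.23 to 0.17 for Ranbp2.

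The labels do not say that arrays of equal number share a batch. Deviations from group means correlated at -0.041 to 0.487 over 21 pairs of groups. All 10 pairs of collagen groups and the uncoated pair were over 0.1, and 2 of 10 pairs across plates, which is a hint of shared variation from the data and not the design. The replicate block gave 30 plate calls in R132C cells and 34 in vector cells. Background correction could not be changed from summarised values and was not run. The 2 arrays a group limit what could be called, and levels near the lower quartile, such as Xpo4 on uncoated plates, are closer to background.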

Other observations

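Some genes that work beside the 43 fell on uncoated plates as well, where 12.3% of all genes fell in R132C cells and 14.2% in vector cells. Of 14 other measured pore and transport genes 8 fell in R132C cells and 6 in vector cells, and none rose. Rcc1, the chromatin-bound exchange factor that loads Ran with GTP, was at 9.05 and 8.72 on uncoated plates, against 9.93 and 9.78 on collagen, in R132C cells, and at 8.49 and 8.58 on uncoated plates, against 9.80 and 9.57 on collagen, in vector cells. It fell 1.96-fold in R132C cells and 2.22-fold in vector cells. Xpot, the exporter of tRNA, fell 1.80-fold in R132C cells and 1.89-fold in vector cells, and Aaas, a nucleoporin, 1.68-fold in R132C cells and 1.87-fold in vector cells. Nupl2, an older symbol of Nup42, fell 1.6-fold in R132C cells and 1.56-fold in vector cells.

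Of 14 measured mRNA export genes 4 fell in R132C cells and 6 in vector cells, and none rose. Ddx39a, a helicase of the export machinery, fell 1.56-fold in R132C cells and 1.57-fold in vector cells, and the adaptor Alyref 1.40-fold and 1.49-fold. Of 11 genes of the nuclear lamina and inner membrane 6 fell in R132C cells and 7 in vector cells. Lmnb1, a B-type lamin, fell 1.80-fold in R132C cells and 2.34-fold in vector cells, Lbr, the lamin B receptor, 1.68-fold and 1.98-fold, and Lmna, the A-type lamin gene, 1.58-fold and 1.71-fold. Sun2, which links the lamina to the cytoskeleton, rose 1.45-fold in R132C cells and 1.54-fold in vector cells, the 1 gene of that list that rose in each comparison.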
